A study of Mus musculus with 7 samples.

Results

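This account covers 10 genes of heart muscle in mouse embryos with and without Adnp: Myl2, Myh7, Myl7, Myl4, Myh6, Tnnt2, Actc1, Nppa, Nppb and Smpx. They were found as probe sets whose array annotation gives 1 symbol only, equal to one of these names, which gave 13 probe sets of 22626 that are not array controls, and 10 genes of 12393. All 10 genes, and 11 of the 13 probe sets, passed the filter on dim signals. The 2 ventricular genes are Myl2 and Myh7, the 3 atrial genes are Myl7, Myl4 and Myh6, and the other 5 genes are expressed in both kinds of chamber and are called pan-cardiac here.

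RNA came from whole bodies of C57BL/6 embryos on embryonic day 9, freed of yolk sac and amnion and of mixed sex per the labels. The 3 genotypes were Adnp wild type (2 arrays), Adnp heterozygous (3 arrays) and Adnp knockout (2 arrays), typed on yolk sac DNA by PCR for Adnp and the neomycin resistance gene. Each array held 2 pooled littermates of 1 genotype, so 14 embryos gave 7 Affymetrix 430A arrays (the labels do not say which pools shared a litter). The series asks which genes lie downstream of ADNP, at an age when embryos without it are already abnormal, and heart tissue is only part of each sample.

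The heart is the first organ to work, and by this age the looped tube beats and its chambers are being set apart. Every cardiomyocyte builds sarcomeres from actin, troponin and myosin, while some myosin light and heavy chains are kept for ventricle or atrium. Chamber muscle that balloons out of the tube also switches on genes that the primary tube lacks, of which natriuretic peptide A is the classic marker.

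The promoters of Nppa, Nppb and Smpx, the 3 markers of chamber muscle among the genes, are printed together with that of Myl7. Both knockout arrays read lowest for those 3 genes and not for Myl7. They also read lowest for Myl2 and Myl4, whose promoters are not printed. Each line is the 250 bases before the gene's start as given by RefSeq on GRCm38.p6, 5′ to 3′ on the gene's strand. Capitals mark matches to a GATA site (AGATAA or TGATAA), an NKX2-5 site (AAGTG) and a T-box site (AGGTGT), each searched on both strands.
Nppa (chr4:148000472-148000721, plus strand): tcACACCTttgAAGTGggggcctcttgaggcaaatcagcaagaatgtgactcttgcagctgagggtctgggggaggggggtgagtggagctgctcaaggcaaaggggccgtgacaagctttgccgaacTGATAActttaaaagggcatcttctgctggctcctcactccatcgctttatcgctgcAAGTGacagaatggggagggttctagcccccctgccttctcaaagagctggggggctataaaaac
Nppb (chr4:147985650-147985899, plus strand): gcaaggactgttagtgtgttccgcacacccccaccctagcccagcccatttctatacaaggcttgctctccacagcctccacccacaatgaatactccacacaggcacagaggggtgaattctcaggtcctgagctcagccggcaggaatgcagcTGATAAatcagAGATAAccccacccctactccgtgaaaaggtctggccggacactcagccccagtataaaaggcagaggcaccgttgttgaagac
Smpx (chrX:157698723-157698972, plus strand): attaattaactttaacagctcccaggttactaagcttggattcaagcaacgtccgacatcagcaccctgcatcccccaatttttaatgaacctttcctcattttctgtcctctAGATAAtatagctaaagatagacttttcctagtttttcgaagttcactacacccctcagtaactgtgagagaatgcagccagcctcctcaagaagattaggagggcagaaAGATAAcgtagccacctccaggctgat
Myl7 (chr11:5898783-5899032, minus strand): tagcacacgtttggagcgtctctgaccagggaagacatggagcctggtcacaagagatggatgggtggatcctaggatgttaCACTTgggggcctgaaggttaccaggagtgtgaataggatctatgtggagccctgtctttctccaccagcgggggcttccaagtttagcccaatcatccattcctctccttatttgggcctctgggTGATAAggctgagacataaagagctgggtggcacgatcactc

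GATA4, NKX2-5 and TBX5 are transcription factors of the early heart, and these are short forms of the letters they bind. A GATA match stood 122 bases before the start of Nppa, 95 and 84 bases before that of Nppb, 137 and 27 bases before that of Smpx and 42 bases before that of Myl7. NKX2-5 matches stood 239 and 65 bases before the start of Nppa and 168 bases before that of Myl7, and the T-box site stood 248 bases before that of Nppa. Of 32851 promoters of the same length, 16.6% held the GATA letters, 40.7% the NKX2-5 letters and 11.8% the T-box letters. Of further motifs, searched on both strands too, a TATA box (TATAAA, in 12.4% of promoters) lay 9 bases before the start of Nppa and 31 before that of Nppb. An MCAT element (CATTCC, in 12.6%) lay 105 bases before the start of Nppb, 70 before that of Myl7 and 206 before that of Myh6. It also lay before 1 start each of Myh7 (201 bases) and Tnnt2 (27 bases). Of the unprinted genes that read lowest in the knockout, Myl4 had no GATA or T-box match and an NKX2-5 match 111 bases before its start. Myl2 had a GATA match 211 and an NKX2-5 match 161 bases before 1 of its 2 starts, and neither before the other. Further matches of GATA, NKX2-5, TATA box and E-box letters in windows of genes whose promoters are not printed are not listed. A CArG box (in 1.47%) lay 61 bases before the start of Myl7 and 47 before that of Actc1, and no MEF2 site (in 0.508% of promoters) was found in the windows of the 10 genes. E-boxes (CANNTG, in 66.2%) lay 195 and 66 bases before the start of Nppa, the second overlapping an NKX2-5 match, 99 before that of Nppb, where it overlaps a GATA match, and 168 before that of Myl7, where it overlaps the NKX2-5 match. Nppa and Nppb are neighbours on chromosome 4, and Myh6 and Myh7 on chromosome 14. Myl2, Myh7 and Tnnt2 have 2 starts each in the table, and which one these hearts used is not given here. The matches describe letters and do not show that a factor was bound.

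Against wild type, the knockout held less RNA of Myl2, the ventricular myosin light chain, and of Nppa, and none of the 10 genes rose. By limma, 2 of the 10 fell and 8 did not pass an adjusted p of 0.05, where 3.32% of all 8019 genes tested passed, 1.36% falling and 1.96% rising. Among the classes 1 of 2 ventricular, 0 of 3 atrial and 1 of 5 pan-cardiac genes fell. The median difference of the 10 genes was -0.29 on the log2 scale, beside -0.01 over all genes. Both knockout arrays lay below the other 5 arrays for 5 of the 10 genes (Myl2, Myl4, Nppa, Nppb and Smpx), as for 16.5% of all genes, and above them for 0, as for 14.2%. In whole embryos, fewer heart muscle cells and less RNA per cell cannot be told apart.

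**Figure D1:**
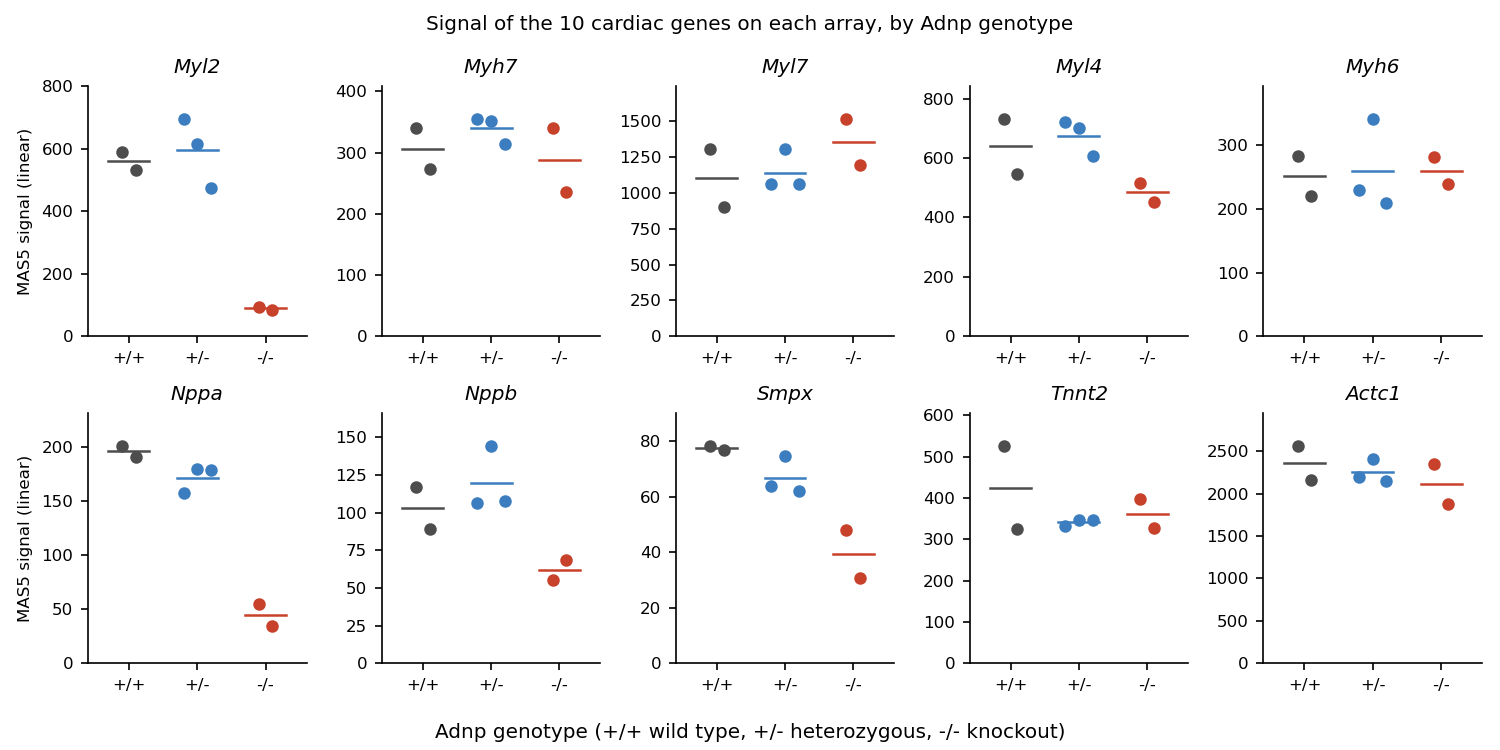
MAS5 signal on a linear scale for each of the 10 genes, 1 point per array, with the Adnp genotype along the horizontal axis and a bar at the group mean. The knockout arrays of Myl2 (95.4 and 84.2) and Nppa (54.6 and 34.5) lie far below the other 5 arrays, while those of Myh6 and Tnnt2 lie among them.

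Myl2, the regulatory light chain of ventricular myosin, had signals of 589.2 and 532.7 in wild type, 696.0, 616.5 and 474.9 in heterozygotes and 95.4 and 84.2 in the knockout. The 2 knockout pools were close to each other and far below all other pools. The mean fell from 561 ± 40.0 (SD, n = 2) to 89.8 ± 7.92 (n = 2), a log2 difference of -2.59 (SE 0.17, 95% interval -2.98 to -2.21, limma, adjusted p = 9.35e-05), or 6.04-fold lower. Against the heterozygotes, with a mean of 595.8 ± 112 (n = 3), the difference was -2.66 (SE 0.16, adjusted p = 3.87e-05). By p, Myl2 ranked 2 of 8019 genes in the first comparison and 1 in the second. With any 1 of the 7 arrays left out, Myl2 still passed against wild type, with differences from -2.68 to -2.51.

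Myh7, the beta heavy chain of the embryonic ventricle, gave no such difference. It read 340.3 and 272.7 in wild type, 355.2, 351.1 and 314.2 in heterozygotes and 340.6 and 236.1 in the knockout. The knockout pools straddle those of wild type, one at the highest and one below the lowest. The difference from wild type was -0.10 (95% interval -0.50 to 0.30, limma, adjusted p = 0.821), turning positive without wild-type replicate 1 (0.056) or knockout replicate 2 (0.16). The interval leaves room for a fall of up to 0.50, and none near that of Myl2. Against heterozygotes it was -0.26 (95% interval -0.62 to 0.11, adjusted p = 0.399).

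Of the atrial genes, none passed the test in either knockout comparison. Myl7, the regulatory light chain that is at first made throughout the heart tube and later kept in the atria, read 1301.6 and 897.2 in wild type, 1058.6, 1304.2 and 1058.4 in heterozygotes and 1515.1 and 1190.5 in the knockout. The highest of the 7 values was a knockout pool, and the groups overlapped. The difference from wild type was 0.31 (95% interval -0.10 to 0.72, limma, adjusted p = 0.401), so a fall of the size of Myl2's lies outside the interval. Against heterozygotes it was 0.24 (adjusted p = 0.440).

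Myl4, the essential light chain of atrial and embryonic muscle, read 732.3 and 545.5 in wild type, 720.1, 699.8 and 605.7 in heterozygotes and 514.8 and 453.7 in the knockout. Both knockout pools lay below all others, though the higher one lay close to a wild-type pool. The difference was -0.38 from wild type (95% interval -0.73 to -0.04, limma, adjusted p = 0.212) and -0.48 from heterozygotes (adjusted p = 0.0752), and neither passed. A second Myl4 probe set, below the filter, read 8.9 and 70.5 in the knockout and 18.1 to 36.9 elsewhere, too dim and too scattered to rank the genotypes.

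Myh6, the alpha heavy chain of the embryonic atria, read 282.9 and 220.0 in wild type, 228.9, 341.4 and 209.9 in heterozygotes and 280.9 and 238.8 in the knockout. All 3 genotypes overlapped. The differences of 0.05 from wild type (95% interval -0.44 to 0.55, limma, adjusted p = 0.934) and 0.03 from heterozygotes (adjusted p = 0.951) took either sign when single arrays were left out. A second, dim Myh6 probe set, below the filter, read 21.3 and 23.7 in wild type, 22.6, 14.9 and 12.7 in heterozygotes and 17.9 and 9.7 in the knockout. Its knockout pools lay below both wild-type pools and overlapped the heterozygotes.

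The heavy chains are near copies of each other, and 2 further probe sets are annotated to both, so they stand outside the 13. The brighter one read 329.6 and 289.4 in wild type, 315.0, 351.0 and 246.6 in heterozygotes and 347.4 and 263.7 in the knockout, with all genotypes overlapping. The dimmer one, below the filter and untested, read 32 and 38.8 in wild type, 59.9, 24.3 and 48.3 in heterozygotes and 9.6 and 15.1 in the knockout, where both pools were below all others. The 2 shared probe sets thus differ, and the dim one cannot be given to either gene.

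The pan-cardiac thin filament genes did not pass. Tnnt2, cardiac troponin T, read 526.7 and 324.1 in wild type, 332.3, 347.9 and 347.8 in heterozygotes and 397.6 and 327.5 in the knockout. One wild-type pool was high and the other 6 pools lay close together, and the difference from wild type of -0.19 (limma, adjusted p = 0.656) became 0.15 without that pool. A second Tnnt2 probe set read 405.2 and 290.6 in wild type, 279.6, 482.8 and 260.7 in heterozygotes and 315.5 and 271.3 in the knockout, and its difference from wild type was -0.23 (adjusted p = 0.715 over 12528 probe sets). Actc1, the cardiac alpha-actin, read 2563.7 and 2158.7 in wild type, 2195.6, 2401.8 and 2149.0 in heterozygotes and 2343.9 and 1871.4 in the knockout. Its groups overlapped, with a difference of -0.17 from wild type (95% interval -0.45 to 0.12, limma, adjusted p = 0.530) and of -0.10 from heterozygotes (adjusted p = 0.665).

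Of the markers of chamber muscle, Nppa passed against wild type, while Nppb and Smpx read low in the knockout and did not pass there. Nppa, the atrial natriuretic peptide, a hormone made by working muscle of both embryonic chambers, read 201.7 and 191.4 in wild type, 157.8, 179.8 and 178.7 in heterozygotes and 54.6 and 34.5 in the knockout. The knockout pools were far below the rest, and the heterozygous pools were all slightly below wild type. The mean fell from 196.6 ± 7.28 (SD, n = 2) to 44.6 ± 14.2 (n = 2), a log2 difference of -2.08 (SE 0.20, 95% interval -2.53 to -1.63, limma, adjusted p = 0.000744), or 4.23-fold lower. Against heterozygotes it fell by 1.89 (SE 0.19, adjusted p = 0.000577). It still passed against wild type with any 1 array left out, with differences from -2.39 to -1.78.

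Nppb, the B-type natriuretic peptide and chromosomal neighbour of Nppa, read 116.8 and 89.3 in wild type, 106.3, 144.3 and 107.6 in heterozygotes and 55.4 and 68.3 in the knockout. Both knockout pools were the lowest of the 7. Against heterozygotes Nppb fell by 0.90 (SE 0.20, 95% interval -1.34 to -0.46, limma, adjusted p = 0.0284). Against wild type the difference was -0.70 (SE 0.22, 95% interval -1.18 to -0.22, adjusted p = 0.113) and did not pass. Its call against heterozygotes was lost without heterozygous replicate 2 (-0.76, adjusted p = 0.0561), heterozygous replicate 3 (-0.97, adjusted p = 0.0560), knockout replicate 1 (-0.76, adjusted p = 0.201) or knockout replicate 2 (-1.04, adjusted p = 0.103). Without a filter on dim genes it was lost too (adjusted p = 0.0606).

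Smpx, a small protein of striated muscle that marks chamber myocardium, read 78.4 and 77.0 in wild type, 63.8, 74.5 and 61.9 in heterozygotes and 48.1 and 30.9 in the knockout. Both knockout pools lay below the other 5, as for 16.5% of all genes. All heterozygous pools lay below both wild-type pools, as for 8.27%. The share of genes with both orders was not counted. The differences of -0.94 from wild type (SE 0.24, 95% interval -1.47 to -0.42, limma, adjusted p = 0.0597) and -0.73 from heterozygotes (SE 0.22, adjusted p = 0.0759) did not pass. Against wild type Smpx passed with array weights (adjusted p = 0.0346) or with probe sets averaged (adjusted p = 0.0487). Smpx lies on the X chromosome, and the sex of the pools differed: Xist, the RNA of the inactive X, read 801.0 and 844.4 in wild type, 595.0, 62.0 and 548.2 in heterozygotes and 510.3 and 58.8 in the knockout. With the mean of the Y-linked genes as a covariate, the Smpx differences were -0.96 from wild type (adjusted p = 0.961) and -0.73 from heterozygotes (adjusted p = 0.199). That mean largely follows the genotype in comparisons with wild type, so sex and genotype cannot be told apart there. A part of X linkage in the Smpx values was not tested.

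Set against the heterozygotes, 3 of the 10 genes fell (Myl2, Nppa and Nppb) and 7 did not pass, where 5.86% of all genes passed, 2.76% falling and 3.11% rising. The classes gave 1 of 2 ventricular, 0 of 3 atrial and 2 of 5 pan-cardiac genes. The median was -0.37, beside -0.02 over all genes. Both comparisons use the same knockout arrays, so the second is no separate evidence.

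Between heterozygotes and wild type 0 of the 10 genes passed by limma, and 0 had an unadjusted p under 0.05. Over all 8019 genes 0% were called, with 284 (3.54%) at an unadjusted p under 0.05. The differences ran from -0.27 for Tnnt2 to 0.20 for Nppb, with a median of 0.05. For Nppa (-0.19, 95% interval -0.60 to 0.22) and Smpx (-0.21, 95% interval -0.69 to 0.27) all 3 heterozygous pools lay below both wild-type pools, as they did for 8.27% of all genes. For Myl2 the difference was 0.07 (95% interval -0.28 to 0.42).

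**Figure D2:**
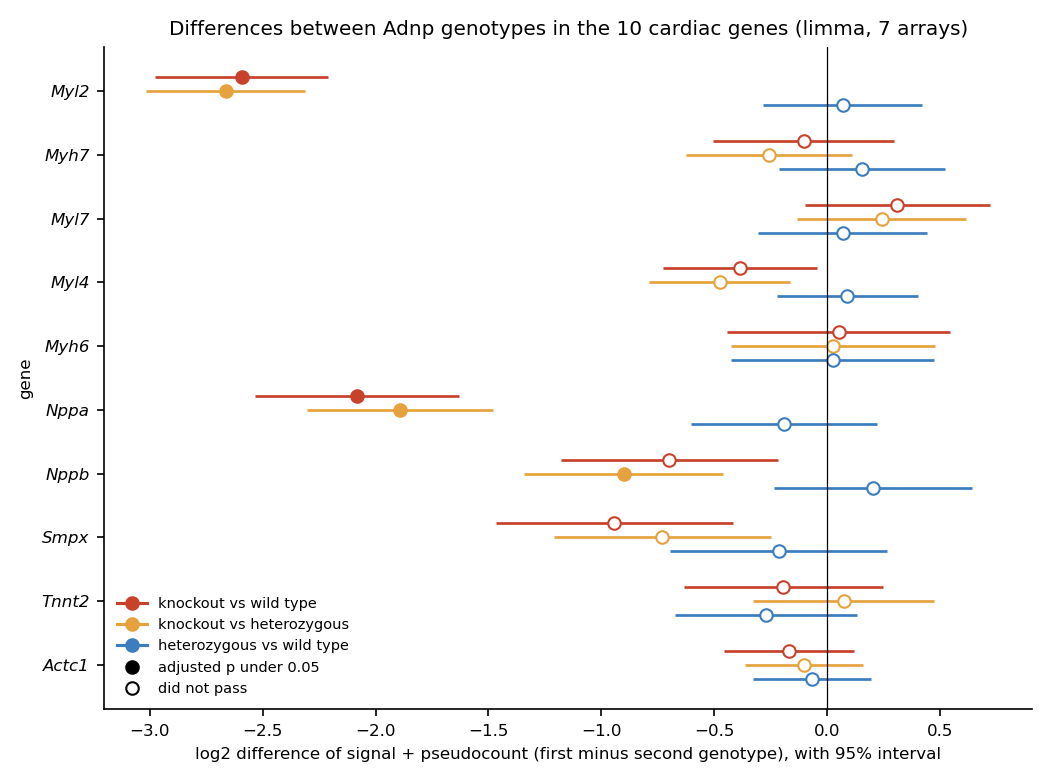
Log2 difference of signal plus pseudocount for each of the 10 genes in the 3 comparisons of genotypes, with 95% intervals from limma over 7 arrays. Filled points passed an adjusted p of 0.05: Myl2 and Nppa in both knockout comparisons, and Nppb against heterozygotes (-0.90), while every difference of heterozygotes from wild type lies between -0.27 and 0.20.

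To see whether the low genes differed from heart muscle genes at large, each array's mean log2 of Tnnt2 and Actc1 was subtracted from its other values. On this scale Myl2 lay at -2.41 against wild type (95% interval without moderation across genes -3.07 to -1.76) and Nppa at -1.90 (-2.42 to -1.38). Both fell by limma, as 2 of the 8 remaining genes, where 0.649% of all genes fell, and 0 of the 8 rose, where 2.88% did. Since every gene shares the same pair of reference genes, limma pooled their spread across genes and its p-values are too small here. Without moderation both had an adjusted p of 0.263. Smpx lay at -0.76 (-1.31 to -0.22), Nppb at -0.52 (-1.21 to 0.18) and Myl4 at -0.20 (-0.49 to 0.09). Myl7 lay at 0.49 (0.24 to 0.75) and did not pass by either way of testing. Against heterozygotes Myl2 lay at -2.65 (-3.25 to -2.06), Nppa at -1.88 (-2.35 to -1.41) and Nppb at -0.89 (-1.52 to -0.26), 3 of 8 fallen by limma, where 1.28% of all genes fell and 2.11% rose. All 3 failed without moderation (adjusted p from 0.294 to 0.608). The Nppb call was lost without any one of the heterozygous or knockout arrays (adjusted p from 0.0546 to 0.759). Such ratios show unequal change within an array and not that Tnnt2 and Actc1 stayed level.

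**Figure D3:**
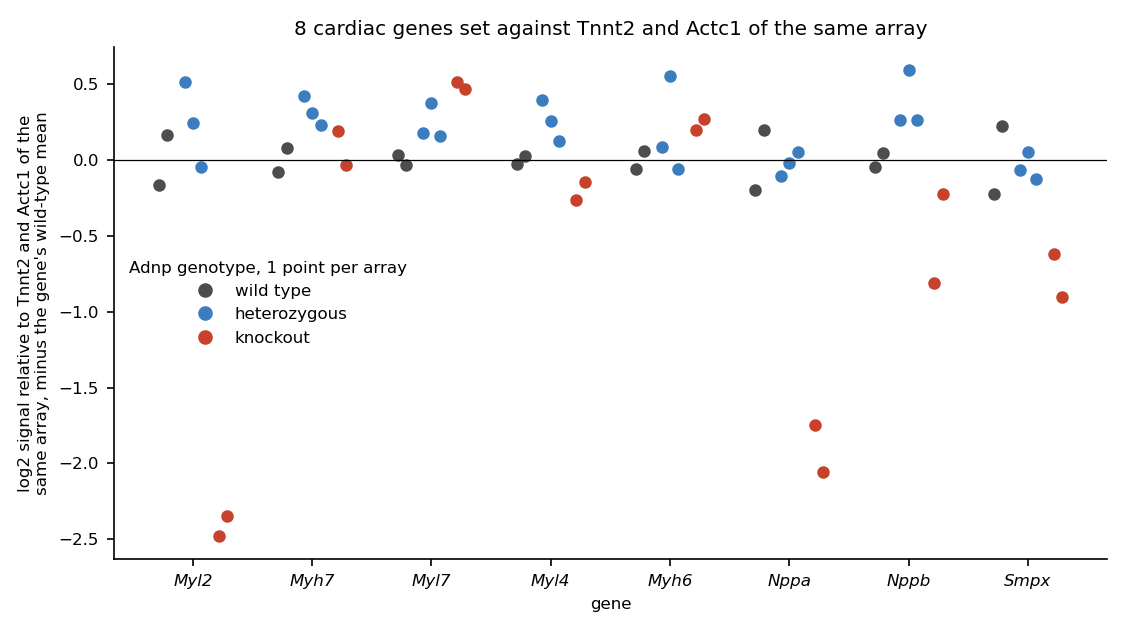
Log2 signal of 8 genes relative to the mean log2 of Tnnt2 and Actc1 on the same array, minus the wild-type mean of each gene, with 1 point per array coloured by Adnp genotype. Both knockout points of Myl2 (-2.48 and -2.35) and Nppa (-1.75 and -2.06) lie far below zero, and those of Myl7 (0.52 and 0.47) above it.

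Genes that share the sarcomere and the cardiomyocyte with these 10 lay slightly lower in the knockout by their median, and few passed. Of 59 other contractile and cardiomyocyte genes 31 were measured, and against wild type 0 passed by limma (4 at an unadjusted p under 0.05, as had 19.1% of all genes), with 19 below and 12 above zero. Their median was -0.26 and their range -0.61 to 0.30, beside a median of -0.01 over all genes and of -0.29 for the 10 genes. The largest were Myom1, which ties myosin at the M band (-0.61, adjusted p = 0.159), Hspb7, a small heat shock protein of heart (-0.48, adjusted p = 0.241), Myl3, the essential light chain of ventricular muscle (-0.45, adjusted p = 0.207), and Ldb3, a Z disc protein (-0.44, adjusted p = 0.468). Myl3, a ventricular partner of Myl2 on the same myosin, read 197.8 in the knockout, 266.6 in wild type and 258.9 in heterozygotes on average. Against heterozygotes 20 lay below and 11 above zero, with a median of -0.17 (all genes -0.02), a range of -0.81 to 0.34 and 10 of 31 at an unadjusted p under 0.05, as had 22.7% of all genes. The lowest was Tnni3, the adult cardiac troponin I (-0.81, SE 0.22, limma, adjusted p = 0.0553), which did not pass and is named after its value was seen. In this comparison 2 of the 31 fell: Tnni1, the slow troponin I of embryonic heart (-0.52, SE 0.13, limma, adjusted p = 0.0481), and Tpm1, alpha-tropomyosin (-0.44, SE 0.11, adjusted p = 0.0481). Tnni1 lost its call with any 1 array left out (adjusted p from 0.0545 to 0.236), and Tpm1 with any but heterozygous replicate 2 (up to 0.293). Tpm1 read 1110.2 and 983.2 in wild type, 1157.4, 956.0 and 1068.7 in heterozygotes and 820.5 and 741.1 in the knockout. Tnni1 read 330.8 and 275.2, then 396.7, 349.2 and 315.9, then 246.6 and 241.0 in the same order. In both genes the knockout pools were the lowest.

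Cardiac transcription factors, 15 of 19 measured, had a median of -0.09 against wild type, and 0 passed by limma (3 at an unadjusted p under 0.05). Against heterozygotes 1 fell, Hey1, a Notch target of the chambers (-0.67, SE 0.17, adjusted p = 0.0443), which is named because it completes the count. Its call was lost without heterozygous replicate 1 or 3 or either knockout array (adjusted p from 0.0984 to 0.223).

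**Figure D4:**
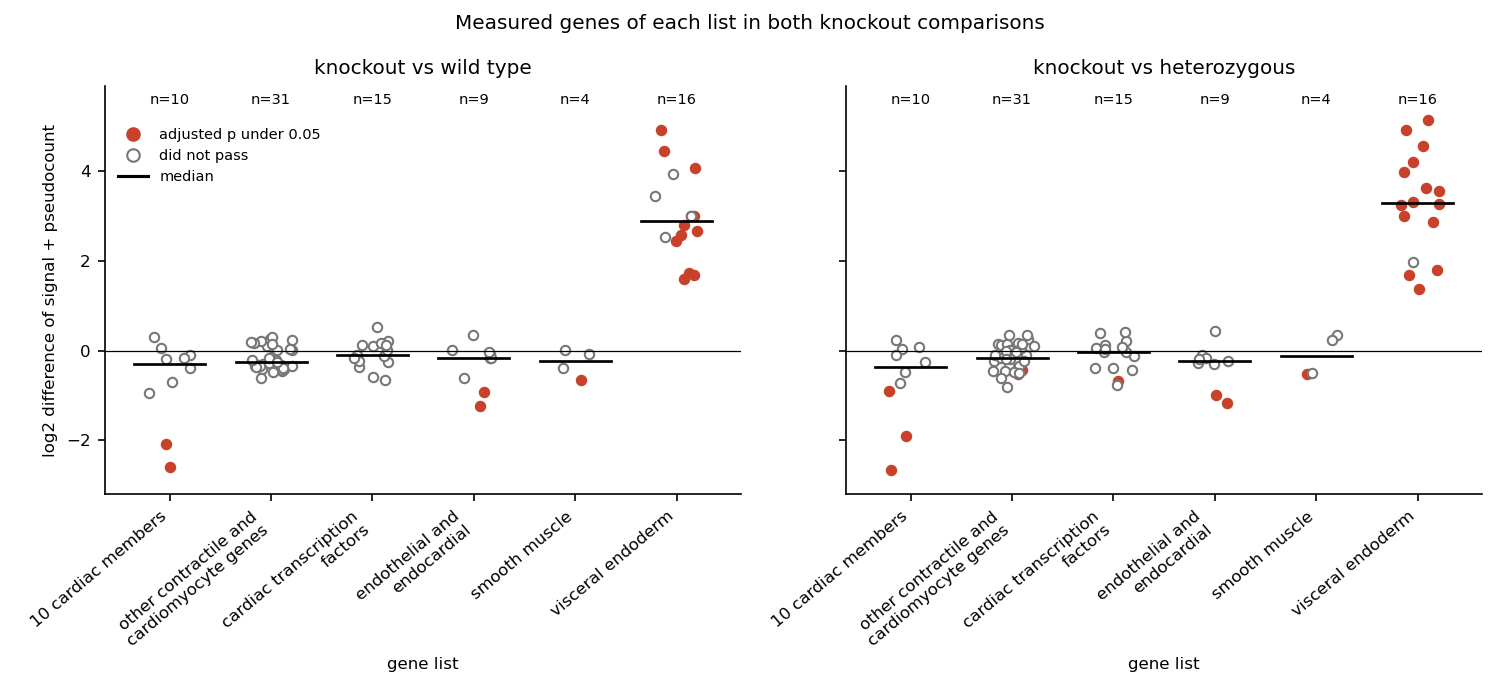
Log2 difference of each measured gene, 1 point per gene, in the 10 cardiac genes and 5 other gene lists, for knockout against wild type and against heterozygotes. The line is the median of a list and filled points passed an adjusted p of 0.05: the medians against wild type are -0.29 for the 10 genes, -0.26 for other contractile genes and 2.89 for visceral endoderm markers.

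Other cell types moved with the genotype as well. Of 23 visceral endoderm markers 16 were measured, and 12 rose against wild type (median 2.89) and 15 against heterozygotes (median 3.30). Their summed signal was 12192 to 14612 in the knockout, 920.3 to 3406 in wild type and 999.4 to 2188 in heterozygotes. With the mean of these markers as a covariate the differences from wild type were -2.56 for Myl2 (adjusted p = 0.0506) and -2.23 for Nppa (adjusted p = 0.102), and 0 of the 10 genes, like 0 of all 8019, passed in either knockout comparison. That mean log2 signal was 9.14 to 9.35 in the knockout, 5.30 to 7.21 in wild type and 5.22 to 6.65 in heterozygotes. It largely follows the knockout genotype, so this fit cannot tell the 2 apart. Y-linked genes had a mean log2 signal of 3.14 to 3.56 in wild type, 5.11 to 5.99 in heterozygotes and 5.69 to 6.11 in the knockout. With their mean as a covariate 0 of the 10 genes and 0 of all 8019 passed against wild type (Myl2 -3.14, adjusted p = 0.557, and Nppa -1.69, adjusted p = 0.920). Both wild-type pools had less Y-linked signal than every other pool, and the highest Xist signals. Sex and genotype therefore cannot be told apart in comparisons with wild type, where this covariate largely follows the genotype. Against heterozygotes Myl2 (-2.75, adjusted p = 0.000454), Nppa (-1.83, adjusted p = 0.00487) and Nppb (-1.14, adjusted p = 0.0193) passed with that covariate.

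Among the embryos' other muscle and vessel markers, Emcn fell against wild type by more than Nppb or Smpx and by less than Myl2 or Nppa. Of 10 endothelial and endocardial markers 9 were measured and 2 fell against wild type: Emcn, endomucin (-1.23, limma, adjusted p = 0.00848), and Plvap, a protein of vessel fenestrae (-0.92, adjusted p = 0.0144). Their list had a median of -0.16, and a summed signal of 745.2 to 813.2 in the knockout, 925.6 to 1038 in wild type and 912.5 to 1108 in heterozygotes. Of 6 smooth muscle markers 4 were measured and Myl9, a smooth muscle light chain, fell (-0.65, adjusted p = 0.0413). Myl9 lost its call with any array but heterozygous replicate 1 left out (adjusted p up to 0.261), Plvap without any one wild-type or knockout array (up to 0.121) and Emcn without wild-type replicate 2 or knockout replicate 2 (up to 0.0902). Against heterozygotes Emcn (-1.17, limma, adjusted p = 0.00578), Plvap (-0.98, adjusted p = 0.00575) and, only just, Myl9 (-0.52, adjusted p = 0.0498) fell too. Of 14 skeletal muscle markers only Acta1 and Myl1, which early heart also makes, passed the filter, and the master regulators of skeletal muscle were dim: Myod1 read 12.4 to 31.8 over the 7 arrays, Myog 5.9 to 44.2, Myf5 1.6 to 17.8 and Myf6 2.0 to 5.2. The summed signal of that pair was 228.0 to 430.7 in the knockout, 209.6 to 277.7 in wild type and 294.6 to 329.4 in heterozygotes. The 7 measured primitive erythroid markers had 0 calls against wild type by limma, and 0 at an unadjusted p under 0.05. The part of vessel and other muscle cells in the values of the heart genes was not tested.

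The genes whose pattern over the 7 arrays was most like that of Myl2 were sought by the root mean square difference of log2 values centred on each gene. Pax1, a transcription factor of the sclerotome, was the nearest (0.121), at 65.9 and 62.2 in wild type, 81.7, 65.6 and 52.9 in heterozygotes and 8.5 and 9.3 in the knockout. The next were Trp53rka, a p53-related kinase gene (0.411), Rad51c, a recombination factor (0.427), Col26a1, a collagen (0.467), and Fabp7, a fatty acid binding protein of neural progenitors (0.482). Like Myl2, Pax1 was highest in heterozygous replicate 1 and, outside the knockout, lowest in heterozygous replicate 3. Pax1 was picked for its likeness to Myl2 on these same arrays, so the shared order is no separate evidence.

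Over the whole table the arrays had median signals of 55.5 to 57.5 and pairwise correlations of 0.947 to 0.974 over log2 values of all probe sets, which are no replicates. The one Adnp probe set is annotated to the neighbouring Dpm1 as well, so loss of the targeted RNA could not be checked and the genotypes rest on the labels. With 2 or 3 arrays per genotype, the precision of each value above is limited.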

How the data were processed

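Whole embryos on embryonic day 9 were measured on 7 Affymetrix 430A arrays, and groups were taken from the sample titles. The authors deposited linear intensities, 1 per probe set and array, from MAS5, as the submitters' processing notes name it. Its version is not stated there. The trimmed mean was 150.0 to 150.1 on every array, so each value is relative to its whole array and shows no change that all genes share.

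A pseudocount of 3.8, the 10th percentile of all deposited values, was added before taking log2, which understates log2 changes of dim genes. A gene was its brightest probe set with 1 symbol, and genes under the 40th percentile of mean log2 signal (38.1 as signal plus pseudocount) were left out, leaving 8019. Differences were tested with limma 3.58.1 under R 4.3.3 (lmFit and eBayes with an intensity trend) over all 7 arrays, with 4 residual and 6.19 prior degrees of freedom, Benjamini-Hochberg adjustment over the 8019 genes and a threshold of 0.05. Adjusted p-values are two-sided and limma's from this fit or a named alternative of it. Those given as without moderation come from the same linear model with each gene's own variance in place of limma's moderated one. The value table's 22690 probe sets include 64 controls, and 20380 of the others have 1 symbol, 691 several and 1555 no entry in the annotation table.

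The 10 genes, the lists and the alternatives were chosen with earlier results of these data known. Named beside them were contractile genes called in any comparison with the 4 largest against wild type, up to 3 called markers per list, and the 5 patterns nearest to Myl2. On simulated data for knockout against wild type, with 200 of 8019 genes changed, the fit recovered 79.4% of changes of 1 log2 unit and 99.0% of changes of 2. The simulated noise was normal, with a spread that did not depend on signal, so these shares may not hold for dim genes. Alternatives were pseudocounts of 1 and 16, filters, scaling, trend, the arrays in the fit, array weights, a replicate block, the choice of probe set, a threshold of 0.1, marker scores as covariates and single arrays left out. A fit without moderation across genes was added after seeing the data. Pools of separate embryos are the replicates.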

Additional observations from a re-analysis of the deposited data

How the results depend on the processing

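With 66 values and 23 other settings, 1238 of 1445 recomputed values were kept. A difference was kept if it held its direction and its side of the threshold, so one that had not passed was kept by not passing again. Leaving out an array of the third genotype left the size of a difference as it was. The total is therefore no measure of how firm the calls are. A count was kept if it stayed equal or similar, such as 2 becoming 3. The falls of Myl2 and Nppa against wild type passed with every single array left out and in 12 of 15 other fits each. The count of fallen genes among the 10 went from 2 against wild type and 3 against heterozygotes to 0 in both with the visceral endoderm score or without moderation across genes, to 0 against wild type with the Y-linked score, and to 5 against heterozygotes at a threshold of 0.1, where 6.21% of all genes fell. Without moderation 0 of all 8019 genes passed in any of the 3 comparisons, and with the visceral endoderm score 0 passed in either knockout comparison. The counts per probe set, 2 and 3, went to 0 in the same fits (with the Y-linked score only against wild type), and the counts relative to Tnnt2 and Actc1, 2 and 3, went to 1 and 1, to 0 and 0, and to 0 against wild type. Without moderation Myl2 had adjusted p-values of 0.0868 and 0.0644 and Nppa of 0.118 and 0.0806. The cause of these losses was not tested.

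Other contractile genes called against heterozygotes, 2, were both lost with median centring and with no filter, where 1 other gene each was called (Gja1, which rose, and Bmp10, which fell), and the count was 0 with quantile normalization, no trend, the 2 genotypes alone, probe sets apart, the replicate block, both scores or no moderation. The count against heterozygotes rose to 3 with the filter at the 60th percentile and with array weights (Gja1, which rose, beside Tnni1 and Tpm1). It was also 3 with averaged probe sets, where Tnni1, Atp2a2 and Hspb7 fell (Hspb7 -0.93, limma, adjusted p = 0.0324). In these settings 7.06%, 8.27% and 5.27% of all genes passed. The count against wild type, 0, became 1 with array weights (Tpm1) or averaged probe sets (Atp2a2). With single arrays left out the count against heterozygotes ranged from 0 to 2, of other genes in part. Gja1, Bmp10 and Atp2a2 are named to complete these counts.

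Reversals touched values that had not passed, except Myl9 against wild type with the Y-linked score (0.016) and Hey1 against heterozygotes with the visceral endoderm score (0.033). With the Y-linked score Hey1 (0.0097), Myh6 (-1.51), Myl3 (0.18) and Myl7 (-0.51) turned against wild type, Myh6 against heterozygotes (-0.22) and Nppb in heterozygotes against wild type (-1.06). With the visceral endoderm score Myh6 (-0.68) and Myl7 (-0.40) turned against wild type, and Myh6 (-0.78), Myl7 (-0.54) and Tnnt2 (-0.70) against heterozygotes. With averaged probe sets Myh6 turned in both (-0.28 and -0.10), as did Tnnt2 against heterozygotes (-0.044) and Myl4 relative to Tnnt2 and Actc1 against wild type (0.085). With single arrays left out Myh7 ranged from -0.36 to 0.16, Myh6 from -0.13 to 0.23 and Tnnt2 from -0.54 to 0.15 against wild type. Against heterozygotes Myh7 ranged from -0.52 to 0.0039, Myh6 from -0.11 to 0.24, Tnnt2 from -0.064 to 0.21 and Actc1 from -0.26 to 0.061. Tnnt2 in heterozygotes against wild type ranged from -0.61 to 0.079.

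The replicate numbers gave no sign of pairing the pools: deviations of same-numbered pools correlated at -0.05 between wild type and knockout and at -0.29 and -0.28 between wild type and heterozygotes. With 2 pools in a group the deviations mirror each other, so these values cannot settle whether pools were paired. With the replicate block 2 of the 10 genes still fell against wild type, Nppb lost its call against heterozygotes (-0.97, adjusted p = 0.108), and Myh6 there was -0.11. Genes called over the whole table went from 157 higher and 109 lower to 51 and 21. Arrays are few, and signals near the filter, such as Smpx, Ldb3 and Myom1, have wide intervals.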
